A study of Arabidopsis thaliana with 8 samples.

Results

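The 10 genes described here encode enzymes and enzyme subunits of chlorophyll biosynthesis, from the first committed step of tetrapyrrole synthesis to chlorophyll b. They were chosen by gene identifier and are 10 of the 27207 genes in the deposited table. All 10 were found in it and all 10 passed the filter on low values (mean scaled count of 1 or more). They are *HEMA1* (AT1G58290), *CHLH* (AT5G13630), *CHLI1* (AT4G18480), *CHLD* (AT1G08520), *CHLM* (AT4G25080), *CRD1* (AT3G56940), *PORA* (AT5G54190), *PORB* (AT4G27440), *PORC* (AT1G03630) and *CAO* (AT1G44446).

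RNA sequencing of whole *Arabidopsis thaliana* seedlings compared the wild type (WT, accession Col-0) with *idd4*, a mutant in the same background that carries a T-DNA insertion in the zinc finger transcription factor gene *IDD4*. Seedlings of both genotypes were moved at 5 days to half-strength MS medium without added salt (mock) or with 100 mM NaCl, and were 14 days old. Each of the 4 groups, WT mock, *idd4* mock, WT NaCl and *idd4* NaCl, holds 2 libraries that the series describes as biological replicates. The number of seedlings in a library and the hour of harvest are not given in the sources used here. The comparisons ask how transcript levels differ with salt and with genotype.

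Chlorophyll is made in the plastid from glutamate. Glutamyl-tRNA reductase (HEMA1) opens the pathway, which is shared with heme up to protoporphyrin IX, and magnesium chelatase (CHLH, CHLI and CHLD) then commits the pigment to chlorophyll. CHLM methylates the magnesium porphyrin, CRD1 is a subunit of the cyclase that closes the isocyclic ring, and the NADPH:protochlorophyllide oxidoreductases PORA, PORB and PORC reduce protochlorophyllide in a reaction that needs light. CAO converts chlorophyll a into chlorophyll b. The genes are nuclear and respond to light, to the clock and to signals from the plastid, and free intermediates of the pathway are toxic in light.

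Upstream sequence is given for *CHLM*, which fell under NaCl, for the pair of oxidoreductase genes *PORA* and *PORB*, and for *CRD1* and *CAO*, whose upstream stretches hold a G-box. The stretches end at the base before the annotated gene start, hold no base of another annotated gene and were read 5′ to 3′ on the strand of the gene from the RefSeq TAIR10.1 genome. They are chr4:12876735-12876821 on the plus strand, chr5:21992815-21993014 on the minus strand, chr4:13725360-13725545 on the plus strand, chr3:21076316-21076504 on the plus strand and chr1:16851272-16851471 on the minus strand. Capitals mark matches to the 6 motifs named in the next paragraph.
CHLM: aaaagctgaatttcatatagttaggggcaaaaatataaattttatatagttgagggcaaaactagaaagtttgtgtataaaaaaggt
PORA: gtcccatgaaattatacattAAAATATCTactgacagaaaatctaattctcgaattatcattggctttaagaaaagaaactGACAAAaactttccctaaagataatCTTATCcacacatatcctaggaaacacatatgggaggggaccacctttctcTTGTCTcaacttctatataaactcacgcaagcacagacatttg
PORB: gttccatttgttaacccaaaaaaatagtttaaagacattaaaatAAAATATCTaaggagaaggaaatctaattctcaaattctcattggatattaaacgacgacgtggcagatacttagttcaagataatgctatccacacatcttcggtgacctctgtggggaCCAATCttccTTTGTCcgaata
CRD1: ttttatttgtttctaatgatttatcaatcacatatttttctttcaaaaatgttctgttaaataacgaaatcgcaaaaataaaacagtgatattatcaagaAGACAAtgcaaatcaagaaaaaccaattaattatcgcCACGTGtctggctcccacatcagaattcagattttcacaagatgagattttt
CAO: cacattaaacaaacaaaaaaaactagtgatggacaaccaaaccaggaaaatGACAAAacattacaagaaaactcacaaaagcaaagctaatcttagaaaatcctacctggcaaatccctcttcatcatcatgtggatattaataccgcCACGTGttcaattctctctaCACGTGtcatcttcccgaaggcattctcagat

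Motifs were searched on both strands in the 250 bases before the start of 27443 annotated genes, a window that can reach beyond the stretches printed above. The G-box CACGTG, a site of bZIP and bHLH factors, was in 6.49% of all windows and in those of *CRD1* and *CAO*. In *CRD1* it lay from 52 to 47 bases before the gene start, and *CAO* held one at the same distance and another from 32 to 27 bases before it. The evening element AAAATATCT, a site of the clock factor CCA1, was in 2.36% of all windows and in those of *PORA* and *PORB*. It began 180 bases before the start of *PORA* and 142 before that of *PORB*. A run of 13 bases, aaatctaattctc, stands downstream of the element in both and was the longest run shared by the stretches printed above for these 2 genes. CCAATC, known as a site of GLK factors, was in 10.2% of windows and among the members in *PORB* alone, at 219 and 22 bases before the start. The I-box GATAAG was in 12.3% of windows and among the members in *PORA* alone. Sites of the maize IDD protein ID1 were searched in 2 overlapping forms. TTTGTC was in 24.1% of all windows and in those of *CHLM*, *PORA*, *PORB* and *CAO*, and AGACAA, whose reverse complement TTGTCT shares 5 bases with it, was in 19.6% of all windows and in those of *CRD1* and *PORA*. Matches did not overlap each other in the members. The other 5 members held none of these motifs in the window.

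Expression is given as a scaled fragment count, the fragments assigned to a gene times one factor per library, without division by gene length. Depth ranged from 5882615 fragments in *idd4* NaCl replicate 1 to 13557480 in *idd4* NaCl replicate 2. *IDD4* itself read 273.9 and 360.1 in WT mock, 476.8 and 435.8 in mock-treated *idd4*, 414.2 and 427.8 in WT NaCl, and 602.7 and 527.5 in *idd4* NaCl. The libraries labelled *idd4* were thus higher than WT under each treatment, and the difference did not pass the test (average log2 difference 0.48, SE 0.13, unadjusted p = 0.00601, adjusted p = 1, limma). A count over the whole gene does not show where along the transcript the fragments lie. Genotype is therefore given as labelled. All 14 root markers and all 10 shoot markers on the lists used were detected. The root markers summed to 2733 to 3765 in the 4 mock libraries and to 1522 to 2127 in the 4 NaCl libraries, without overlap, and the shoot markers to 788.6 to 891.2 and to 640.4 to 978.3. Over both genotypes 6 of the 14 root markers were higher and 8 lower, and 2 fell. One of these, *PRP3*, had group means of 1087 in WT mock, 1231 in mock-treated *idd4*, 401 in WT NaCl and 389.6 in *idd4* NaCl, and so made up much of the difference in the sum. Of the shoot markers 2 rose and 2 fell, where 12.1% of all genes rose and 3.80% fell. With the libraries rescaled by the median of ratios, 0 shoot markers rose and 3 fell, and 5 root markers fell. There 1161 of the 21820 genes tested rose and 1502 fell. The part of these marker differences in the results was not tested. In whole seedlings, fewer cells of a type and less RNA per cell cannot be told apart.

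Transcripts of *CHLM* and *PORA* fell under NaCl over both genotypes, and the other 8 members did not pass the test there. The median of the 10 log2 differences was -0.46 over both genotypes, -0.45 in WT and -0.46 in the libraries labelled *idd4*, while the median over all 21820 genes tested was 0.25 in each comparison. The members lay, by their median, 0.71 below the median gene over both genotypes. *HEMA1* and *CAO*, at the entry and at the last step, had positive differences over both genotypes, and *CRD1* stood near 0.

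*CHLM* (chr4, 12876822 to 12878703, plus strand) fell over both genotypes. Its scaled counts were 3603 and 3529 in WT mock, 3531 and 3843 in mock-treated *idd4*, 2502 and 2485 in WT NaCl, and 1866 and 2290 in *idd4* NaCl. Every NaCl library was below every mock library, as for 5.44% of all genes tested. Over both genotypes *CHLM* fell by 0.67 on the log2 scale (SE 0.12, adjusted p = 0.0092, limma). It fell in the libraries labelled *idd4* (-0.83, SE 0.18, adjusted p = 0.042) and was at -0.52 (SE 0.18, adjusted p = 0.15) in WT. The call over both genotypes held when any single library was left out, whereas that in *idd4* held in 1 of 8 such fits, the one without *idd4* NaCl replicate 2.

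**Figure D1:**
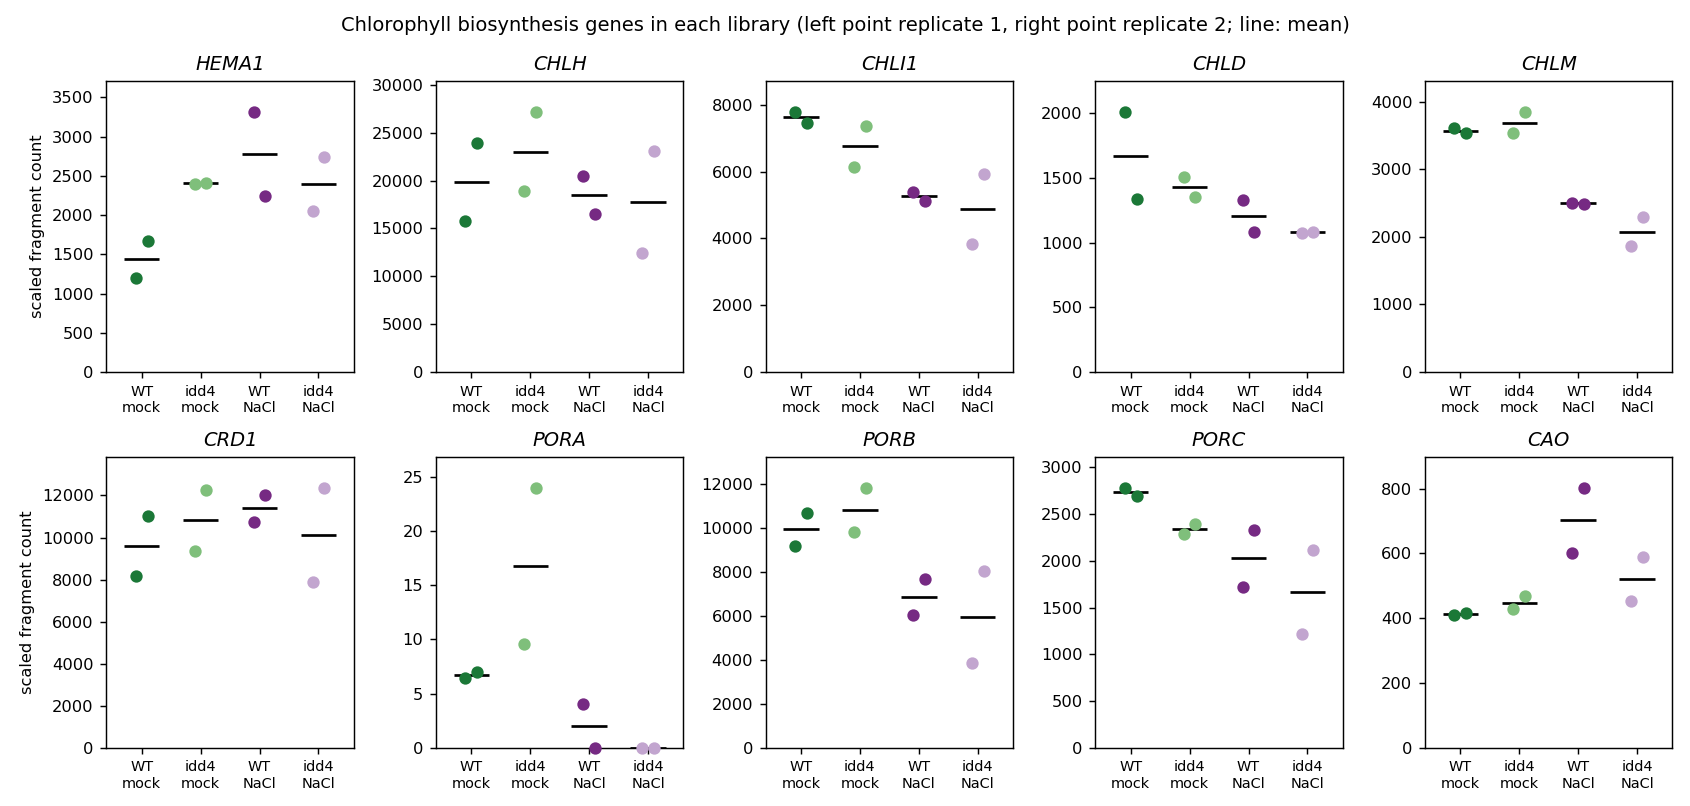
Scaled fragment counts (vertical axes, from 0, one scale per gene) of the 10 genes in each library; points are libraries and lines are group means of 2. *CHLM*, *CHLI1*, *CHLD*, *PORA* and *PORB* sit lower in all 4 NaCl libraries than in all 4 mock libraries, as do 5.44% of all genes tested. The *idd4* NaCl replicate 1 is the lowest library for 8 of the 10 genes, counting the tie at 0 in *PORA*.

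Magnesium chelatase has 3 kinds of subunit, and none of the 3 genes passed in any comparison. *CHLI1*, an ATPase subunit (chr4, 10201672 to 10203469, minus strand), read 7780 and 7470 in WT mock, 6138 and 7369 in mock-treated *idd4*, 5404 and 5134 in WT NaCl, and 3844 and 5926 in *idd4* NaCl. *CHLD*, the second subunit of the ATPase complex (chr1, 2696381 to 2701022, plus strand), read 2007 and 1337, 1509 and 1354, 1326 and 1085, and 1073 and 1084 in the same order of groups. For both genes all NaCl libraries lay below all mock libraries, for *CHLD* by a narrow margin. The same held for 5.44% of all genes tested. Over both genotypes the log2 difference was -0.51 (SE 0.17, adjusted p = 0.07) for *CHLI1* and -0.43 (SE 0.15, adjusted p = 0.086) for *CHLD*. *CHLH*, the porphyrin-binding subunit also known as GUN5 (chr5, 4387307 to 4392429, minus strand), read 15766 and 23921 in WT mock, 18861 and 27131 in mock-treated *idd4*, 20436 and 16515 in WT NaCl, and 12404 and 23109 in *idd4* NaCl. Its groups overlapped throughout, and its difference over both genotypes was -0.25 (adjusted p = 0.53).

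For all 3 oxidoreductase genes both NaCl libraries lay below both mock libraries within each genotype. Of all genes tested, 11.9% did so in WT and 12.6% in *idd4*. *PORA* (chr5, 21990864 to 21992814, minus strand), known from seedlings grown in the dark and shut down in light, was nearly silent here. The fragments behind it were 6 and 7 in WT mock, 10 and 30 in mock-treated *idd4*, 4 and 0 in WT NaCl, and 0 and 0 in *idd4* NaCl. *PORA* fell in the libraries labelled *idd4* (adjusted p = 0.045, limma) and over both genotypes (adjusted p = 0.016). Against a floor of 3 fragments in each *idd4* NaCl library, its mean scaled count of 16.8 in *idd4* mock was at least 4.4-fold higher, and at least 2.5-fold without *idd4* mock replicate 2. In WT the difference was -1.78 on the log2(value + 1) scale (SE 0.86, adjusted p = 0.28). The *idd4* call held only in the fits without WT NaCl replicate 1 or without WT NaCl replicate 2. That over both genotypes was lost without WT mock replicate 1 (adjusted p = 0.055), WT mock replicate 2 (0.062) or *idd4* mock replicate 2 (0.071).

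*PORB* (chr4, 13725546 to 13727440, plus strand) and *PORC* (chr1, 907523 to 909650, plus strand) carry the reaction in green tissue. *PORB* read 9183 and 10680 in WT mock, 9814 and 11804 in mock-treated *idd4*, 6045 and 7645 in WT NaCl, and 3830 and 8038 in *idd4* NaCl. *PORC* read 2780 and 2698, 2283 and 2395, 1723 and 2328, and 1222 and 2111. For *PORB* all NaCl libraries lay below all mock libraries, as for 5.44% of all genes tested. For *PORC* WT NaCl replicate 2 lay above *idd4* mock replicate 1. Neither gene passed. Over both genotypes *PORB* was at -0.75 (SE 0.24, adjusted p = 0.061) and *PORC* at -0.50 (SE 0.18, adjusted p = 0.096). In windows of 36 bases, *PORA* and *PORB* share 13 of the 1520 windows of *PORA* exactly and *PORC* shares none with either.

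*HEMA1* (chr1, 21623700 to 21626402, minus strand) read 1200 and 1672 in WT mock, 2396 and 2412 in mock-treated *idd4*, 3311 and 2239 in WT NaCl, and 2049 and 2745 in *idd4* NaCl. The WT mock pair was below every other library. In WT the difference with NaCl was 0.94 (SE 0.25, adjusted p = 0.088), and in the libraries labelled *idd4* it was -0.02 (SE 0.25, adjusted p = 0.97). *CAO* (chr1, 16848308 to 16851271, minus strand) read 408.8 and 416.8 in WT mock, 427.9 and 467.8 in mock-treated *idd4*, 601.3 and 802.4 in WT NaCl, and 452 and 588.7 in *idd4* NaCl. Both WT NaCl libraries were above the other 6. Its difference was 0.75 in WT (SE 0.20, adjusted p = 0.093) and 0.21 in *idd4* (SE 0.20, adjusted p = 0.58), the latter at -0.04 with median-of-ratios scaling and at -0.01 with edgeR and with DESeq2. *CRD1* (chr3, 21076505 to 21078443, plus strand) read 8168 and 11047, 9355 and 12274, 10761 and 12042, and 7895 and 12360. Its groups overlapped, and its difference over both genotypes was 0.07 (adjusted p = 0.82), or -0.17 with median-of-ratios scaling and -0.16 with edgeR and with DESeq2.

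**Figure D2:**
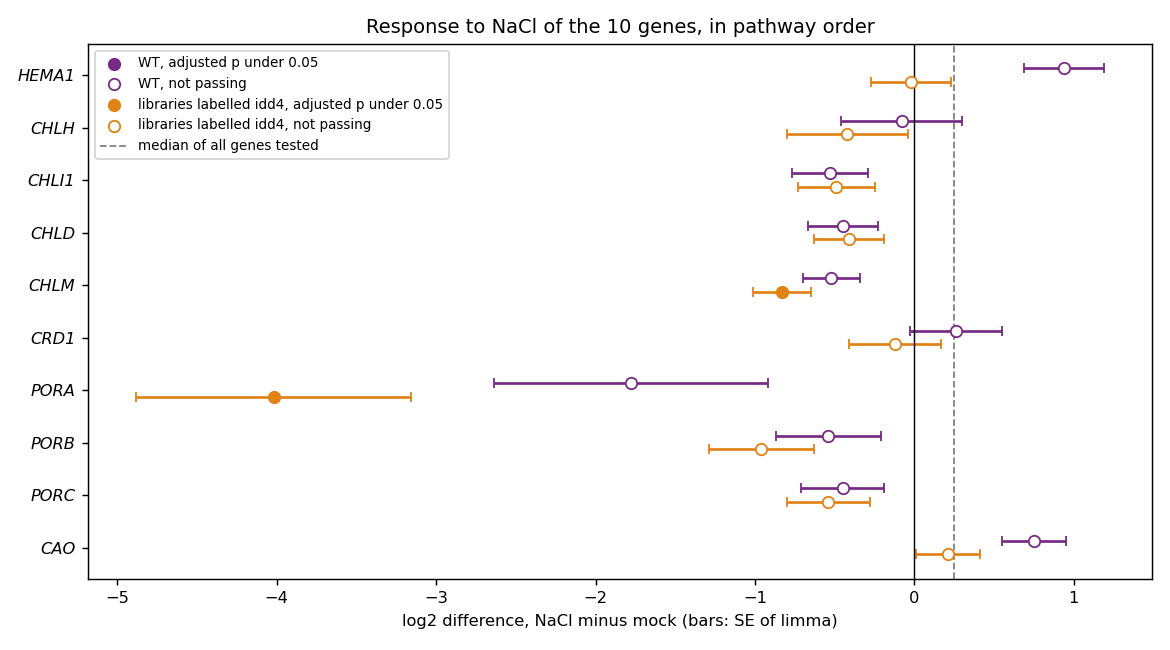
Log2 difference between NaCl and mock (horizontal axis) for each gene, in pathway order from top to bottom, in WT and in libraries labelled *idd4*; points are limma estimates, bars are 1 SE, filled points passed the test and the dashed line is the median of all genes (0.25). Filled points are *CHLM* (-0.83) and *PORA* (-4.02, a value set by the pseudocount since *idd4* NaCl held 0 fragments), both in *idd4*.

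Counted as a group in WT, 0 of the 10 members passed with limma, where 2.40% of all genes tested passed (1.85% rose and 0.550% fell). At an unadjusted p under 0.05 there were 3 members and 4458 of the 21820 genes. edgeR called 0 members and 404 genes, and DESeq2 called 1 member (*CHLM*) and 1093 genes. Both NaCl libraries were below both mock libraries for 6 members (*CHLI1*, *CHLD*, *CHLM*, *PORA*, *PORB* and *PORC*), against 11.9% of all genes, and above them for 2 (*HEMA1* and *CAO*), against 42.5%. In the libraries labelled *idd4* 2 members fell and 0 rose, where 2.96% of all genes passed (0.880% fell and 2.08% rose). There the groups did not overlap for the 6 members just named, all lower, against 12.6% of all genes, and for 0 members upward, against 40.2%. Over both genotypes 2 members fell and 0 rose, where 15.9% of all genes passed (3.80% fell and 12.1% rose). All 4 NaCl libraries were below all 4 mock libraries for 5 members, against 5.44% of all genes, and above them for 0, against 21.7%.

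The deposited scaling bears on these counts. Rescaling by the median of ratios moved the median of all genes over both genotypes from 0.25 to 0.02, and the split of all genes called from 2644 that rose and 829 that fell to 1161 and 1502. The split went from 404 and 120 to 243 and 240 in WT, and from 454 and 192 to 239 and 323 in *idd4*. With that scaling 5 members fell over both genotypes, *CHLI1* (adjusted p = 0.044), *CHLD* (0.018), *CHLM* (0.0066), *PORA* (0.013) and *PORB* (0.049), and 0 rose. DESeq2 called 6 members, all lower, adding *PORC* (0.015). It called 2793 of all genes there, of which 1219 rose and 1574 fell.

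Ratios within a library do not depend on its scaling. *HEMA1* stood at 0.333 and 0.474 times *CHLM* in WT mock, 0.678 and 0.628 in mock-treated *idd4*, 1.32 and 0.901 in WT NaCl, and 1.1 and 1.2 in *idd4* NaCl. *CAO* stood at 0.113, 0.118, 0.121 and 0.122 times *CHLM* in the mock libraries and at 0.24, 0.323, 0.242 and 0.257 in the NaCl libraries. Both ratios were higher in every NaCl library than in every mock library. They were chosen after the values were seen and are given as a description. *PORB* over *PORC* ranged from 3.3 to 4.93 in mock and from 3.14 to 3.81 in NaCl, with overlap.

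**Figure D3:**
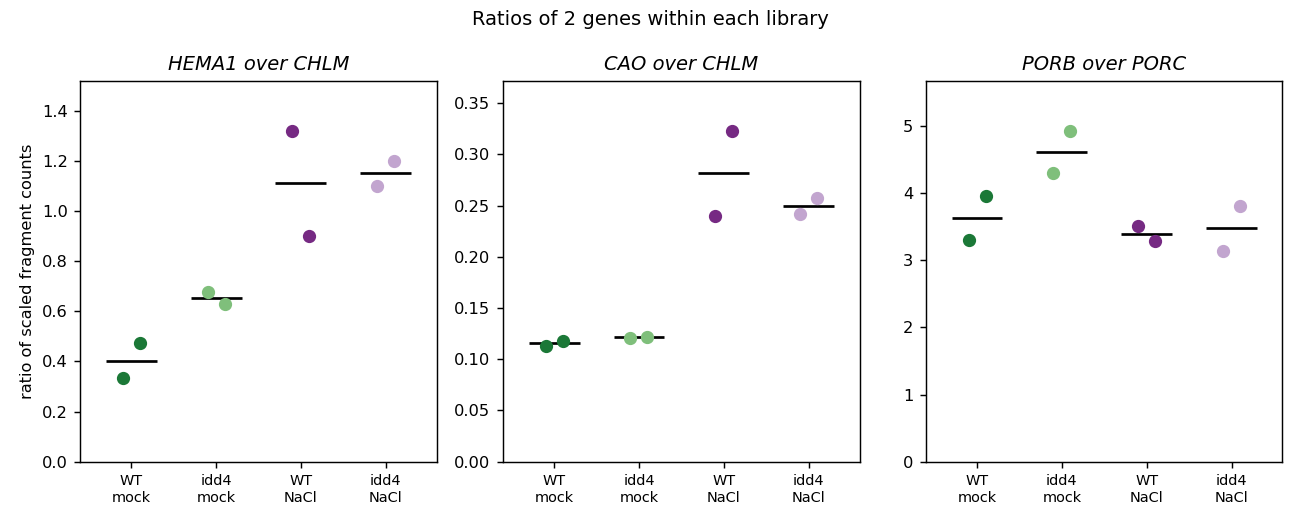
Ratios of scaled fragment counts of 2 genes within each library (vertical axes, from 0); points are libraries and lines are group means of 2. *HEMA1* over *CHLM* runs from 0.333 to 0.678 in mock and from 0.901 to 1.32 in NaCl, *CAO* over *CHLM* from 0.113 to 0.122 and from 0.24 to 0.323, and *PORB* over *PORC* overlaps.

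Per kilobase of exon, the order of mean levels in WT mock was *CRD1* (6435 scaled counts per kilobase), *PORB* (6052), *CHLI1* (4742), *CHLH* (4171), *CHLM* (2089), *PORC* (1533), *CHLD* (633), *HEMA1* (621), *CAO* (178) and *PORA* (4.03). The neighbours *CRD1* and *PORB*, *CHLI1* and *CHLH*, and *CHLD* and *HEMA1* overlapped in their 2 libraries. In WT NaCl *CRD1* (7637) stood clear of *PORB* (4171), and *HEMA1* (1201) had passed *PORC* (1133), with which it overlapped. In *idd4* NaCl the order was *CRD1* (6783), *CHLH* (3733), *PORB* (3616), *CHLI1* (3038), *CHLM* (1217), *HEMA1* (1037), *PORC* (932), *CHLD* (408), *CAO* (224) and *PORA* (0). There *CHLH* overlapped *PORB*, *PORB* overlapped *CHLI1*, *CHLM* overlapped *HEMA1* and *HEMA1* overlapped *PORC*, so the order among these is not resolved. *CRD1* overlaps annotated genes on the opposite strand over up to 259 bases, *PORC* over 121, *CHLI1* over 116, *PORB* over 71, *CHLM* over 37 and *CAO* over 36. *CHLD* overlaps a gene on its own strand over 42 bases. The strand used in counting is not stated.

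The comparison of genotypes without NaCl asks whether the pathway differs between unstressed seedlings of the 2 genotypes as labelled. With limma 0 members and 0% of all genes passed, and at an unadjusted p under 0.05 there were 1 member and 274 genes. edgeR called 0 genes and DESeq2 called 3, none of them a member. *HEMA1* had the smallest p of the members, higher by 0.76 in *idd4* (SE 0.25, unadjusted p = 0.0141, adjusted p = 1), with both *idd4* libraries above both WT libraries. The libraries labelled *idd4* were above WT without overlap for 3 members (*HEMA1*, *PORA* and *CAO*), against 9.05% of all genes, and below it for 2 (*CHLI1* and *PORC*), against 15.9%. The members' median was 0.12 and that of all genes -0.04.

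Under NaCl, all 10 members had lower fitted means in the libraries labelled *idd4* than in WT, from -0.12 (*CHLH*) to -1.16 (*PORA*), with a median of -0.24. Here too 0 members and 0% of all genes passed with limma, 0 members and 532 genes had an unadjusted p under 0.05, and edgeR and DESeq2 each called 0 genes. The groups did not overlap for 3 members, all lower (*CHLD*, *CHLM* and *CAO*), against 18.1% of all genes, and for 0 upward, against 9.32%. *CAO* was at -0.43 (SE 0.20, unadjusted p = 0.0657). The direction rests on *idd4* NaCl replicate 1, the shallowest library. Without it 6 members were higher and 4 lower, and the median was 0.04. In the same way the median NaCl difference in *idd4* was -0.17 without that library and -0.46 with it. Averaged over both treatments, 0 members and 0% of all genes passed with limma, 0 members and 640 genes had an unadjusted p under 0.05, and DESeq2 called 7 genes, none a member.

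The interaction, which tests whether NaCl acted differently in the genotypes, passed for 0 members and 0% of all genes with limma, for 0 with edgeR and for 0 with DESeq2, and 203 genes had an unadjusted p under 0.05. The member among them was *HEMA1*, at -0.96 (SE 0.36, unadjusted p = 0.0241, adjusted p = 1). *CAO* was at -0.54 (SE 0.29) and *PORA* at -2.24 (SE 1.22). The members' median was -0.36, and 0.00 without *idd4* NaCl replicate 1. The falls of *CHLM* and *PORA* that passed in *idd4* and not in WT are therefore not shown to differ between genotypes.

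The rest of the pathway was read from lists of genes, each list described by its counts over both genotypes with limma. Of all genes tested, 3.80% fell and 12.1% rose in that comparison. Of the 13 other genes of the early steps, 12 were tested, 5 fell and 0 rose, with a median of -0.21. They were *GSA2* (-1.03, adjusted p = 0.005), which makes 5-aminolevulinate, *HEMC* (-0.78, 0.01), which makes the linear tetrapyrrole, the uroporphyrinogen decarboxylases *HEME1* (-0.68, 0.032) and *HEME2* (-0.93, 0.0018), and the coproporphyrinogen oxidase *HEMF1* (-0.48, 0.041). *HEME2* also fell in WT (-0.94, 0.023) and in *idd4* (-0.92, 0.025). *HEMA2*, the second glutamyl-tRNA reductase gene, was at 0.07 (adjusted p = 0.8).

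Of 7 other genes of the magnesium branch, 1 fell and 0 rose, with a median of -0.25. This was *CHLI2*, a paralogue of *CHLI1* (-0.94, SE 0.13, adjusted p = 0.0033), and *CHLI1* stood at 4.93 to 6.03 times *CHLI2* in the mock libraries and at 6.92 to 8.57 times in the NaCl libraries, without overlap. That ratio, like those above, is given as a description. *CHLI1* and *CHLI2* share 9 of the 1503 windows of 36 bases of *CHLI1*. *GUN4*, an activator of the chelatase, was at 0.65 in WT (adjusted p = 0.31) and at -0.42 in *idd4* (adjusted p = 0.5). It read 872.1 and 1220 in mock-treated *idd4*. In *idd4* NaCl it read 532.8 in replicate 1, the shallowest library, and 1110 in replicate 2. With median-of-ratios scaling all 7 genes of this list were lower over both genotypes and 3 fell, with a median of -0.49. Of 9 genes of the heme, bilin and siroheme branches, 8 were tested, and 1 fell, the ferrochelatase *FC2* (-0.69, adjusted p = 0.038). Of 5 genes for regulatory proteins of the pathway, 0 passed with limma and 1 had an unadjusted p under 0.05, as did 7541 of the 21820 genes tested. With median-of-ratios scaling 2 fell, *FLU* (adjusted p = 0.031) and *GBP* (0.039), among 1502 genes that fell.

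Genes for light-harvesting chlorophyll-binding proteins, the main carriers of the pigment, were lower under NaCl for 17 of 17 over both genotypes by both scalings, with a median of -0.70. Of these 7 fell, from *LHCB4.3* (-1.87), *LHCB1.4* (-1.67) and *LHCB6* (-1.16) through *LHCA1*, *LHCA3* and *LHCA2* to *LHCB5* (-0.86), with adjusted p from 0.0042 to 0.023 (limma). In WT 14 of the 17 genes were lower and 3 higher, with a median of -0.43. In *idd4* 17 were lower, with a median of -1.04. The summed scaled counts of the list were 592180 to 884623 in the mock libraries and 324005 to 554831 in the NaCl libraries, with *idd4* NaCl replicate 1 the lowest. Some genes of this list, such as those of the *LHCB1* group, are close in sequence, and how shared reads were counted is not stated. Among the 7 that fell, *LHCB1.4* is the gene of that group. Sequence shared within the list was not measured.

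Among 12 genes for transcription factors of chlorophyll genes, 3 rose and 0 fell over both genotypes, where 12.1% of all genes rose, with a median of 0.30 against 0.25 for all genes. With median-of-ratios scaling 2 rose and the median was 0.06, against 0.02 for all genes. *GLK2*, an activator of chloroplast genes, rose by 0.87 (adjusted p = 0.0038). Its mean scaled count was 521 ± 83.2 (SD, n = 2) in WT mock and 1396 ± 79.9 in WT NaCl, and 731 ± 83.4 and 902 ± 26 in *idd4*. In *idd4* it did not pass, and 1 other gene of the list rose there, against 2.08% of all genes. The GATA factor gene *CGA1* rose by 2.29 (adjusted p = 0.0026), and also in *idd4* (2.45, 0.024) and in WT (2.12, 0.041), the last not with median-of-ratios scaling. *FAR1*, of phytochrome signalling, rose by 0.55 (adjusted p = 0.029) and did not pass with median-of-ratios scaling. *GLK1* was at 0.07 (adjusted p = 0.78) and *HY5* at 0.32 (adjusted p = 0.4). Of 10 clock genes 5 were higher and 5 lower, with a median of -0.04, and 3 rose, *CCA1* (2.36, adjusted p = 0.00056), *PRR9* (1.29, 0.0094) and *LHY* (1.33, 0.036), the last not with median-of-ratios scaling, with which *GI* fell (-0.53, adjusted p = 0.044). The hour of harvest is not given, and its part in the results was not tested.

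**Figure D4:**
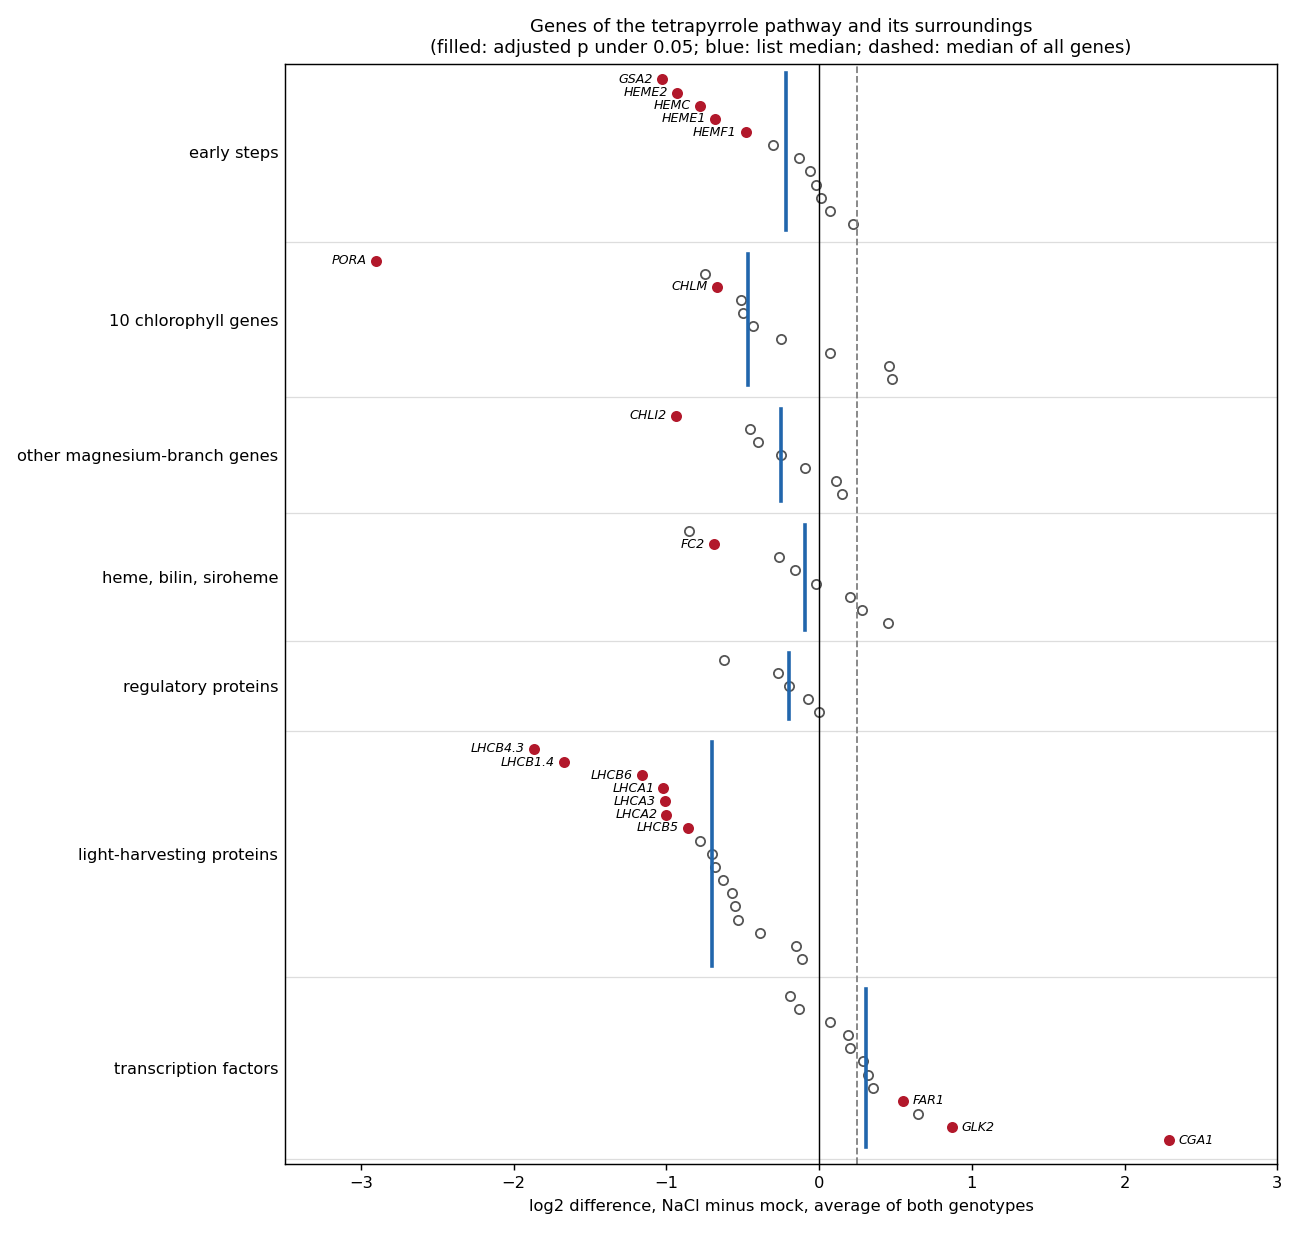
Log2 difference between NaCl and mock averaged over both genotypes (horizontal axis) for each gene tested of 7 lists (rows); filled points passed the test (limma), blue lines are list medians and the dashed line is the median of all genes (0.25). The list medians run from -0.70 for light-harvesting proteins to 0.30 for transcription factors, with -0.46 for the 10 chlorophyll genes.

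Profiles of the members across the 8 libraries are given as Pearson correlations of log2(value + 1), over points that share depth and scaling. The 45 pairs ran from -0.60 to 0.92. *CHLI1*, *CHLM*, *PORB* and *PORC* correlated with each other at 0.83 to 0.92. *HEMA1* and *CAO* correlated with *CHLD* at -0.59 and -0.60 and with each other at 0.54. *PORA* correlated with *CHLM* at 0.90, and *CHLH* with *CRD1* at 0.78. Against the summed light-harvesting genes, *PORB* stood at 0.97, *CHLM* at 0.92, *CHLI1* at 0.85 and *PORC* at 0.83, and *HEMA1* and *CAO* at -0.15 and -0.27. Of 15542 other genes with a mean of at least 50, the 8 most like the mean profile of the members were AT4G12980 (0.98), AT2G27420 (0.98), *LHCB3* (0.97), AT5G61660 (0.96), *LHCB4.2* (0.96), AT1G61300 (0.95), *BAM2* (0.95) and *LHCB2.3* (0.95). In each of these 8 genes *idd4* NaCl replicate 1 was the lowest library, as it was in the members' mean profile (-1.35, in SD units, against -0.07 to 0.74 in the other 7). *LHCB3* read 39051, 43972, 42326 and 52993 in the mock libraries, 31368 and 39189 in WT NaCl, and 18667 and 38565 in *idd4* NaCl.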

How the data were processed

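Groups and replicate numbers came from the labels. The authors trimmed paired-end reads with Trimmomatic 0.32 after FastQC, aligned them to TAIR10 with TopHat and used Cufflinks and cuffdiff. The signal that the authors deposited for each gene is named FPKM but held fragment counts times one factor per library (0.776 to 1.794), and at least 99.96% of values up to 1000 fragments were within 0.05 of a whole multiple of it. Genes averaging 1 or more, 21820 in all, were fitted as log2(value + 1) with limma 3.58.1 in R 4.3.3 over all 8 libraries, with one mean per group and a variance trend. Two-sided p-values were adjusted by Benjamini-Hochberg over all genes tested, with 0.05 as the threshold. Alternatives were median-of-ratios scaling, pseudocounts of 0.5 and 5, no filter, a minimum mean of 10, no trend, only the groups compared, a replicate block, edgeR 4.0.16 and DESeq2 1.42.0 on recovered fragments, and leaving out each library. The members and lists were chosen with earlier results of these data known. All 10 members were named, and of the lists the genes that passed, the largest first. A few others (*HEMA2*, *GUN4*, *GLK1*, *HY5*, and *FLU*, *GBP* and *GI*, which passed only under another scaling) were named after their values were seen. A later addition, made with the values known, was the motif AGACAA. Genes were located in RefSeq TAIR10.1, which held 26553 of the 27207. Tested on simulated data with 100 genes changed per fold size, limma recovered 13 at 2-fold and 93 at 4-fold for NaCl in WT, 16 and 91 in *idd4*, and 59 and 100 over both genotypes. At the 0.05 threshold, 12 of its 118 calls were false in WT, 14 of 121 in *idd4* and 17 of 176 over both genotypes. For DESeq2 these were 34 of 165, 31 of 162 and 35 of 207.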

Additional observations from a re-analysis of the deposited data

How the results depend on the processing

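Depth limits *PORA*, with 57 fragments in all. Within one genotype, 2 libraries per group left most simulated 2-fold changes undetected (13 of 100 recovered in WT and 16 in *idd4*, against 59 over both genotypes). The simulation changed far fewer genes than were called here over both genotypes, none as low as *PORA*, with directions in balance. It drew each library independently, so its rates need not hold for these data. Counts of all genes called, WT then *idd4*, were 84 and 104 without a variance trend and 1093 and 1177 with DESeq2, and in *idd4* 111 with only the groups compared; over both genotypes 1958 were called without the trend. Members called in WT were 1 with DESeq2. In *idd4* they were 1 without a filter (among 497 genes called) and 1 at a minimum mean of 10 (among 622, *PORA* untested). They were 0 there without a trend, 0 with only the groups compared, 1 with edgeR (among 509) and 3 with DESeq2 (among 1177). Over both genotypes they were 5 with median-of-ratios scaling (among 2663 genes called) and 1 at a minimum mean of 10 (among 3493). There they were 3 with edgeR (among 2598) and 6 with DESeq2 (among 2793). The members' median with median-of-ratios scaling was -0.69 in WT (also with DESeq2), -0.70 in *idd4* and -0.70 over both. For genotype, DESeq2 called 3 genes without NaCl and 7 over both treatments. Reversed were *CRD1* over both genotypes (-0.17 with median-of-ratios scaling, -0.16 with edgeR and DESeq2), *CAO* in *idd4* (-0.04, -0.01 and -0.01) and *CHLH* between genotypes under NaCl (0.01 with edgeR, 0.03 with DESeq2). One factor per library moves all genes alike, and the shifts of *CRD1* and *CAO* came with that of the median of all genes, from 0.25 to 0.02 over both genotypes and to 0.01 in *idd4*. For *CHLH* the cause was not tested. Comparisons averaged over groups and the interaction have no fit on only the groups compared.

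No label says that a replicate number marks a shared batch or day. Deviations of same-numbered libraries correlated at 0.06 to 0.48 over 6 pairs of groups, 1 of them under 0.1, and the numbers were not taken to pair the libraries. With a replicate block 1564 genes were called in WT, 1728 in *idd4* and 5551 over both genotypes, and 1 gene between genotypes without NaCl. Of the members 1 (*CAO*) was called in WT and 3 in *idd4*, all 3 lower. Over both genotypes 7 members were called, 6 lower and 1 higher (*CAO*).

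Leaving out one library at a time, all genes called ran from 55 to 698 in WT, 71 to 804 in *idd4* and 1546 to 3677 over both genotypes. Members called ran from 0 to 2 in *idd4* and 1 to 5 over both. The members' median ran from -0.84 to -0.17 in *idd4*, -0.55 to 0.04 between genotypes under NaCl and -0.72 to 0.00 for the interaction. Differences that changed sign were *CHLH* in WT (-0.38 to 0.22); *HEMA1* (-0.23 to 0.19), *CHLH* (-0.87 to 0.03) and *CRD1* (-0.44 to 0.21) in *idd4*; and *CRD1* over both (-0.09 to 0.23). Between genotypes under NaCl they were *HEMA1* (-0.48 to 0.08), *CHLH* (-0.57 to 0.33), *CHLI1* (-0.45 to 0.17), *CRD1* (-0.53 to 0.12), *PORB* (-0.83 to 0.24) and *PORC* (-0.71 to 0.08).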
